A study of Mus musculus with 6 samples.

Results

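Mitochondrial ribosomal protein genes, the nuclear genes that encode the proteins of the ribosome inside mitochondria, were examined in Asxl2-deficient blood stem and progenitor cells. They were taken by symbol, as every name that starts with Mrpl or Mrps followed by a number and at most 1 letter. This rule found 77 of the 24063 gene symbols in the files, 48 named Mrpl and 29 named Mrps, and it used no measured value. RNA sequencing was carried out on LSK cells, the lineage-negative bone marrow cells that carry Sca-1 and c-Kit and hold blood stem and early progenitor cells. There were 3 libraries labelled Asxl2-/- and 3 labelled wild-type control. Mice were C57BL/6, carried the Mx1-cre transgene and had received pIpC, a synthetic double-stranded RNA, some weeks before. The Mx1 promoter responds to interferon, so pIpC switches on the Cre recombinase, which removes the loxP-flanked exon 11 of Asxl2, and both groups were exposed to the interferon response and to Cre. Mx1-cre is not specific to LSK cells, and the label Asxl2-/- refers to a deletion induced after birth.

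The mitochondrial ribosome translates the few messenger RNAs of the mitochondrial genome, which encode core subunits of the respiratory chain. Its ribosomal RNAs come from mitochondrial DNA, whereas its proteins are made in the cytosol from nuclear genes and imported. It has a large subunit, which joins amino acids, and a small subunit, which reads the messenger RNA. Part of the proteins descend from bacterial ribosomal proteins, and the rest were added during the evolution of mitochondria. Blood stem cells are known for a low rate of mitochondrial respiration, and progenitors rely on it more as they differentiate.

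The libraries held between 25528540 and 55032075 counts. The deposited files were of 2 kinds. Asxl2-/- replicates 1 and 3 and control replicate 2 had 1 count per transcript (per-transcript files), and Asxl2-/- replicate 2 and control replicates 1 and 3 had 1 count per exon (per-exon files), where reads across a splice junction may count for several exons. Levels are therefore compared within a kind of file, and tests carry the kind of file as a covariate. The ranges given for Xist and for sums of marker genes are the exception and span both kinds of file. The total level of Asxl2 did not pass the test (log2 fold change 0.11, SE 0.095, edgeR quasi-likelihood test with Benjamini-Hochberg adjustment, adjusted p = 0.469). Exon 11 (chr12:3496225-3496936, mm10), which only the per-exon files resolve, held 28 of 4804 Asxl2 counts in Asxl2-/- replicate 2 (0.583%, 95% Wilson interval 0.404 to 0.841) against 10.3% (9.45 to 11.2) and 12.0% (11.03 to 13.01) in control replicates 1 and 3, and these intervals cover counting error only. The LSK markers Kit, Ly6a, Cd34, Flt3 and Ptprc were all detected, with summed levels of 1211 to 1738 CPM (counts scaled to a common library size) in Asxl2-/- and 1048 to 1308 in control libraries. Of these 5, 3 were higher and 2 lower in Asxl2-/- cells, with 0 past the threshold. Ly6a, the gene of Sca-1, had a log2 fold change of -1.34 (adjusted p = 0.187 by edgeR). It had 52.6 and 57.6 CPM in Asxl2-/- replicates 1 and 3 against 260 CPM in control replicate 2. In the per-exon files it had 69.1 CPM in Asxl2-/- replicate 2 against 40.5 and 148 CPM in control replicates 1 and 3. Xist, made from the inactive X chromosome, lay between 1071 and 2351 CPM in the Asxl2-/- libraries and between 13.0 and 61.3 CPM in the controls, so sex and genotype cannot be told apart in any comparison here.

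The question was whether this gene set differs in abundance between Asxl2-/- and control LSK cells. All 77 genes passed the filter on low counts, with at least 212 counts in each library and at most 9730. Of these, 76 were lower in Asxl2-/- cells, with a median log2 fold change of -0.32, equal to a change of -19.7%. Over the 14145 genes tested, the median was 0.0005 and 49.9% were lower. No mitochondrial ribosomal protein gene passed the threshold (edgeR quasi-likelihood test with Benjamini-Hochberg adjustment over all genes tested, 0 of 77 at an adjusted p under 0.05). Among all genes tested, 2.34% passed in either direction and 0.304% passed as lower. At an unadjusted p under 0.05, 49 of the 77 were lower and 0 were higher, where 12.6% of all genes tested were lower at that level. The adjusted p-values of the 77 ranged from 0.0611 to 0.911. In bulk RNA, fewer cells with a high level and less RNA per cell cannot be told apart. The genes share the same 6 libraries, so these counts describe the set and are not independent observations.

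**Figure D1:**
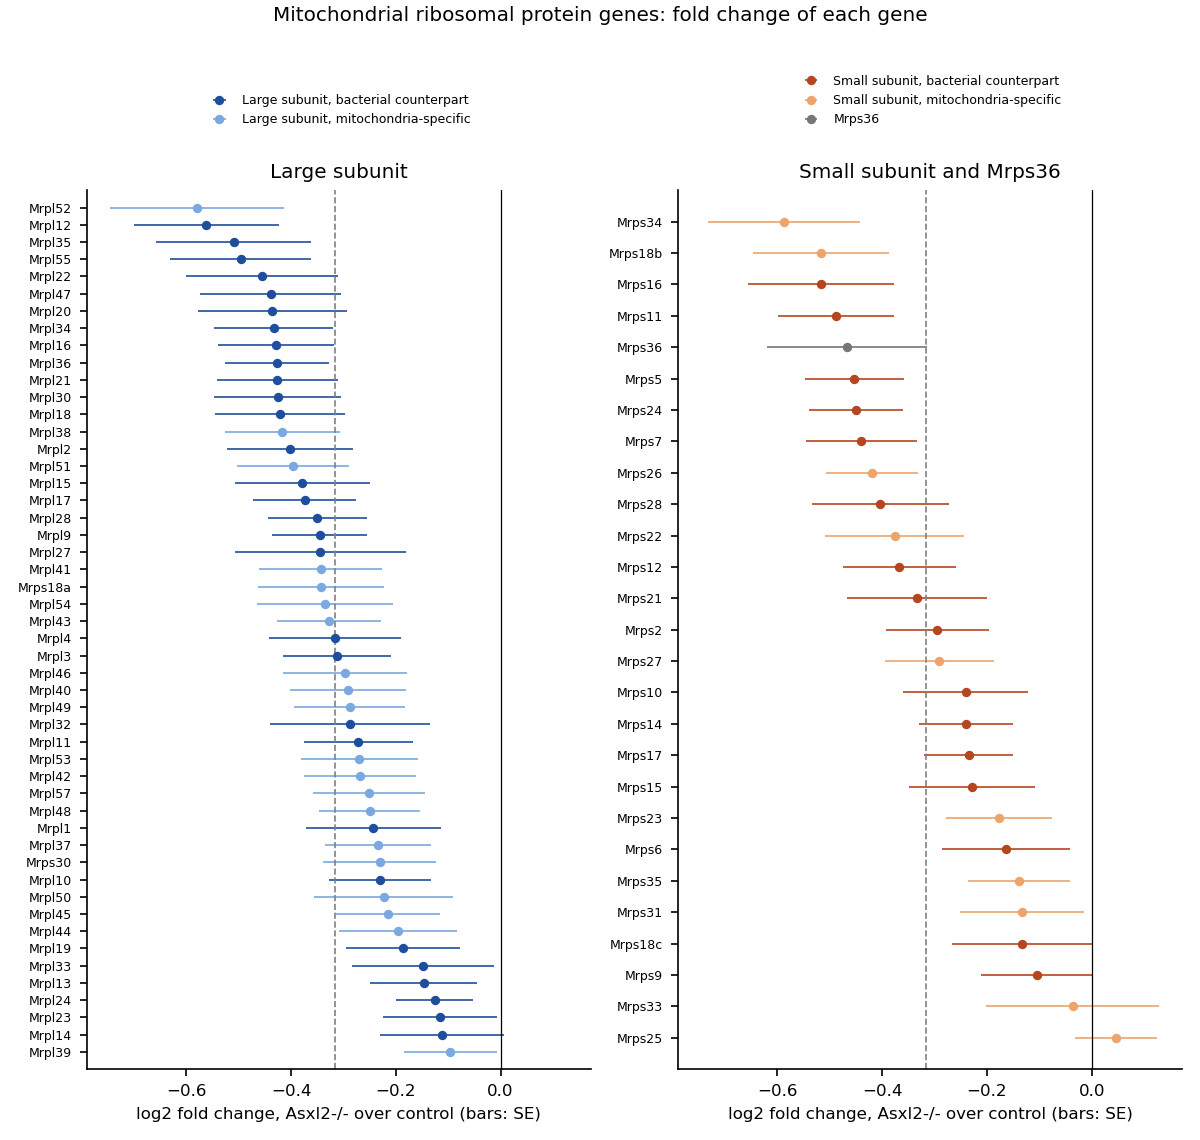
Log2 fold change of each of the 77 genes (horizontal axis, Asxl2-/- over control, bars show 1 SE of the edgeR fit on 6 libraries), ordered by size, with the 50 large-subunit genes on the left and the 26 small-subunit genes and Mrps36 on the right. The dashed line marks the median of -0.32, the solid line marks 0, and only Mrps25 lies above 0.

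Other tests of the same counts gave different numbers of calls. DESeq2 placed 32 of the 77 genes past an adjusted p of 0.05, all of them lower, where 7.97% of all genes tested passed as lower. limma-voom placed 0 of 77 past it, with 43 at an unadjusted p under 0.05 and lower, and 0.396% of all genes passed as lower. At that unadjusted level, 12.4% of all genes were lower with limma-voom. The edgeR count became 24 when control replicate 1 was left out, where 3.9% of all genes passed as lower, and stayed at 0 when any other library was left out. The count of genes lower at an unadjusted edgeR p under 0.05 became 30 without Asxl2-/- replicate 1, against 6.96% of all genes in the same fit. It became 8 without control replicate 2, against 5.64% of all genes, and 28 without control replicate 3, against 6.94%. With the shared replicate numbers as a block beside the kind of file, 51 of the 77 genes passed as lower, where 17.1% of all genes did. Whether these numbers pair the libraries could not be settled from the labels or the counts.

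The summed level of the 77 genes was compared within each kind of file. In the per-transcript files it was 3291 CPM in Asxl2-/- replicate 1, 3411 CPM in Asxl2-/- replicate 3 and 4436 CPM in control replicate 2. In the per-exon files it was 4222 CPM in Asxl2-/- replicate 2, 4520 CPM in control replicate 1 and 5379 CPM in control replicate 3. The Asxl2-/- libraries were the lowest in both kinds of file, but the gap between the 2 controls of the per-exon files was wider than the gap between Asxl2-/- replicate 2 and control replicate 1. Gene by gene, 75 of 77 were lower in Asxl2-/- replicate 1 than in control replicate 2, and 75 of 77 in Asxl2-/- replicate 3 (medians of the log2 ratio -0.43 and -0.38). In the per-exon files, 75 of 77 were lower in Asxl2-/- replicate 2 than in control replicate 3 (median -0.34) and 61 of 77 lower than in control replicate 1 (median -0.09). Between the controls themselves, 75 of 77 were lower in control replicate 1 than in control replicate 3, with a median of -0.24. The set therefore shifted as a group between libraries of the same genotype, by an amount close to that between genotypes. The other 2 libraries of one genotype in the same kind of file, Asxl2-/- replicates 1 and 3, differed by a median of -0.04.

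**Figure D2:**
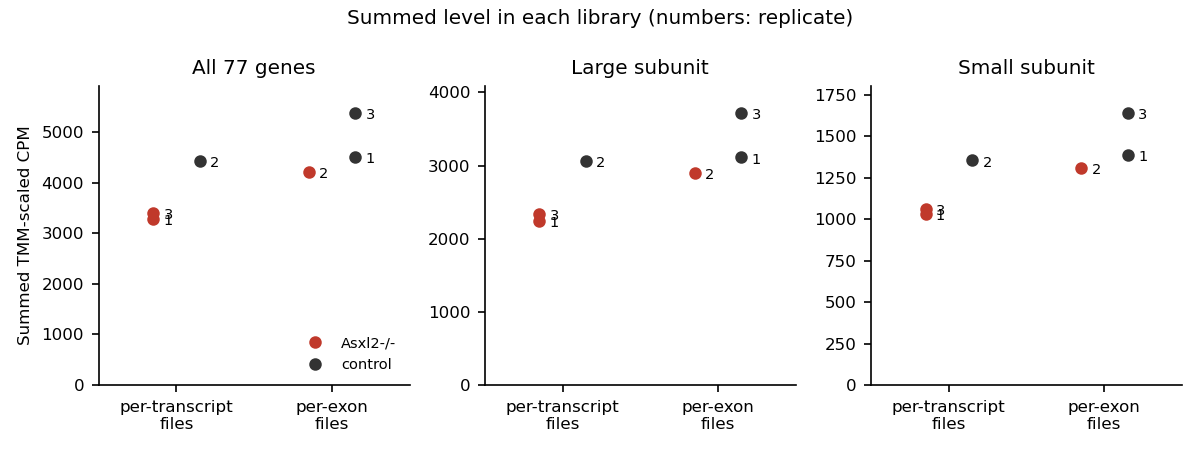
Summed level (vertical axis, CPM after TMM scaling, starting at 0) of all 77 genes, of the 50 large-subunit genes and of the 26 small-subunit genes in each library, by kind of file. Red points are Asxl2-/- and black points control, and numbers give the replicate. Each Asxl2-/- point lies below the controls of its kind of file, and control replicate 3 is the highest of the per-exon libraries in each panel.

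For 59 of the 77 genes the Asxl2-/- libraries lay below every control library of the same kind of file in both kinds, and for 0 they lay above. Of all genes tested, 23.3% were below in this way. The median log2 ratio of the 77 genes was -0.41 in the per-transcript files and -0.22 in the per-exon files, and 72 were lower in both. The 5 exceptions were Mrps25, higher in both, and Mrpl33, Mrps18c, Mrpl14 and Mrps33, lower in the per-transcript files and higher in the per-exon files. Single exons are the parts of the same per-exon counts, so they describe the spread within genes and are not separate evidence. Of the 401 exons of the 77 transcripts with at least 50 counts in each per-exon library, 373 were lower in Asxl2-/- replicate 2 than the mean of the 2 controls, with a median log2 ratio of -0.22. Of these exons 289 lay below both controls and 10 above both, where 43.3% of all such exons of the genes tested lay below both. In 66 genes every such exon was lower, and in Mrps18c (6 exons) and Mrps33 (3 exons) none was.

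**Figure D3:**
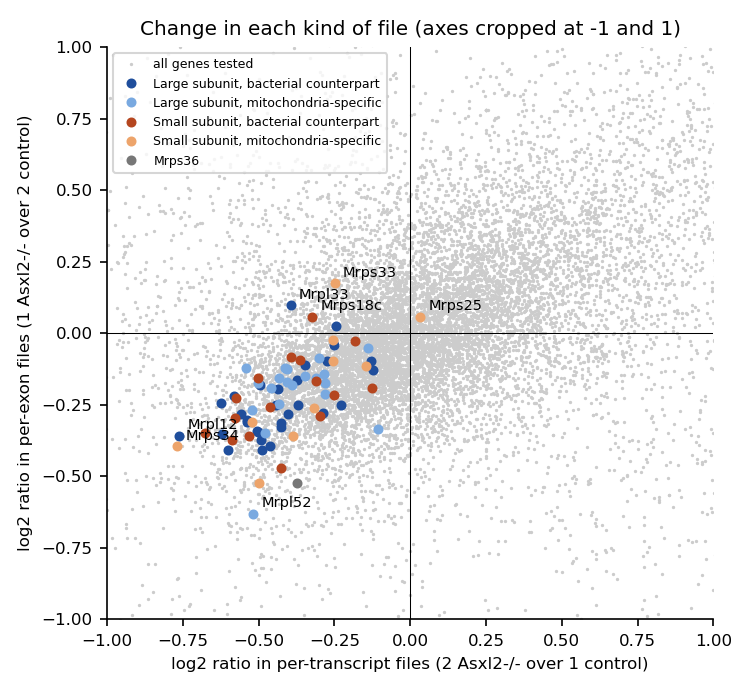
Log2 ratio of Asxl2-/- to control in the per-transcript files (horizontal axis, 2 libraries over 1) and in the per-exon files (vertical axis, 1 library over 2), with the 77 genes in colour by class and all genes tested in grey. Both axes are cropped at -1 and 1, and 72 of the 77 genes lie in the lower left part.

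The large subunit was described first. All 50 of its genes were lower in Asxl2-/- cells (median log2 fold change -0.32, 32 at an unadjusted p under 0.05, where 12.6% of all genes tested were lower, 0 past the threshold). This count includes Mrps18a and Mrps30, which are named for the small subunit but belong to the large one. The 30 large-subunit proteins with a bacterial counterpart had a median of -0.36, and the 20 that are specific to mitochondria had a median of -0.28. The difference between these medians was not tested.

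Mrpl12 (NM_027204, chr11:120484669-120488754), the counterpart of bacterial L7/L12 in the stalk where elongation factors bind, had 97.7 and 103 CPM in Asxl2-/- replicates 1 and 3 and 170 CPM in control replicate 2. It had 143 CPM in Asxl2-/- replicate 2 and 161 and 205 CPM in control replicates 1 and 3. The Asxl2-/- libraries were lowest in both kinds of file. Its log2 fold change was -0.56 (SE 0.138, adjusted p = 0.0808 by edgeR), with levels of 6.87 ± 0.125 (SD, n = 3) and 7.42 ± 0.211 (SD, n = 3) log2 CPM in Asxl2-/- and control cells after removal of the effect of the file kind.

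Mrpl52 (NM_026851, chr14:54426909-54429750), a mitochondria-specific protein of the large subunit, had 38.1 and 55.8 CPM in Asxl2-/- replicates 1 and 3 against 67.5 CPM in control replicate 2. In the per-exon files it had 88.3 CPM in Asxl2-/- replicate 2 against 125 and 149 CPM in control replicates 1 and 3. The groups did not overlap within a kind of file, but the 2 Asxl2-/- per-transcript libraries were unlike each other. Its log2 fold change was -0.58 (SE 0.166, adjusted p = 0.103 by edgeR). Mrpl35 (NM_025430, chr6:71812997-71823784), the counterpart of bacterial L35, had 38.0 and 42.9 CPM in Asxl2-/- replicates 1 and 3, 61.6 CPM in control replicate 2, 44.1 CPM in Asxl2-/- replicate 2, and 49.5 and 67.96 CPM in control replicates 1 and 3. It was lowest in the Asxl2-/- libraries of both kinds of file (log2 fold change -0.51, SE 0.148, adjusted p = 0.104 by edgeR).

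Mrps18a (NM_026768, chr17:46111004-46128908) and Mrps30 (NM_021556, chr13:118380110-118387252) had log2 fold changes of -0.34 (adjusted p = 0.142 by edgeR) and -0.23 (adjusted p = 0.219). Mrpl33 (NM_025796, chr5:31613951-31622644), one of the smallest proteins of the large subunit, had a log2 fold change of -0.15 (SE 0.136, adjusted p = 0.509 by edgeR). It had 59.8 and 54.9 CPM in Asxl2-/- replicates 1 and 3, 75.5 CPM in control replicate 2, 80.1 CPM in Asxl2-/- replicate 2, and 69.1 and 80.5 CPM in control replicates 1 and 3. The Asxl2-/- library of the per-exon files thus lay between the 2 controls.

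Of the 26 small-subunit genes, 25 were lower in Asxl2-/- cells (median log2 fold change -0.29, 16 at an unadjusted p under 0.05, where 12.6% of all genes tested were lower, 0 past the threshold). The 16 with a bacterial counterpart had a median of -0.31 and the 10 specific to mitochondria had a median of -0.23. The set held both the most negative value of all 77 genes and the only positive one.

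Mrps34 (NM_023260, chr17:24895120-24896273), a mitochondria-specific protein of the small subunit, had the most negative log2 fold change. It had 28.7 and 29.3 CPM in Asxl2-/- replicates 1 and 3 against 49.8 CPM in control replicate 2, and 34.0 CPM in Asxl2-/- replicate 2 against 38.9 and 50.9 CPM in control replicates 1 and 3. The groups did not overlap within a kind of file. The log2 fold change was -0.59 (SE 0.146, adjusted p = 0.0820 by edgeR), from levels of 4.94 ± 0.114 (SD, n = 3) in Asxl2-/- and 5.53 ± 0.224 (SD, n = 3) log2 CPM in control cells. Mrps16 (NM_025440, chr14:20391231-20393555), the counterpart of bacterial S16, had 41.0 and 42.6 CPM in Asxl2-/- replicates 1 and 3, 67.2 CPM in control replicate 2, 52.7 CPM in Asxl2-/- replicate 2, and 58.0 and 76.4 CPM in control replicates 1 and 3. It too was lowest in the Asxl2-/- libraries (log2 fold change -0.52, SE 0.140, adjusted p = 0.0942 by edgeR).

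The mammalian mitochondrial ribosome holds 3 proteins related to bacterial S18, and their genes had unlike values. Mrps18b (NM_025878, chr17:35910385-35916369) had a log2 fold change of -0.52 (SE 0.130, adjusted p = 0.0841 by edgeR), with 29.7 and 33.2 CPM in Asxl2-/- replicates 1 and 3, 44.7 CPM in control replicate 2, 49.4 CPM in Asxl2-/- replicate 2, and 61.8 and 80.7 CPM in control replicates 1 and 3. Mrps18a of the large subunit, given above, was at -0.34. Mrps18c (NM_026826, chr5:100798759-100804467), which occupies the place of S18 itself, had a log2 fold change of -0.13 (SE 0.135, adjusted p = 0.551 by edgeR), with a log2 ratio of -0.32 in the per-transcript files and 0.06 in the per-exon files. The difference between the 3 genes was not tested.

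A further 3 small-subunit genes, named after their values were seen, had the smallest p-values of the set. Mrps24 (NM_026080, chr11:5703983-5707699), the counterpart of bacterial S3, had 31.3 and 30.7 CPM in Asxl2-/- replicates 1 and 3 against 45.02 CPM in control replicate 2, and 38.6 CPM in Asxl2-/- replicate 2 against 48.2 and 51.0 CPM in control replicates 1 and 3. Its 2 per-exon controls were close together, and the Asxl2-/- library lay clear of both (log2 fold change -0.45, SE 0.0902, adjusted p = 0.0611 by edgeR). Mrps5 and Mrps26 had log2 fold changes of -0.45 and -0.42, both with an adjusted p = 0.0660 by edgeR. Mrps12 (NM_011885, chr7:28739641-28741781), the counterpart of bacterial S12, the decoding-site protein in which streptomycin resistance arises in bacteria, had a log2 fold change of -0.37 (SE 0.108, adjusted p = 0.106 by edgeR).

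At the other end, Mrps33 (NM_010270, chr6:39801807-39810936) had 7.52 and 8.39 CPM in Asxl2-/- replicates 1 and 3, 9.55 CPM in control replicate 2, 10.03 CPM in Asxl2-/- replicate 2, and 9.21 and 8.46 CPM in control replicates 1 and 3. It was lower than the control in the per-transcript files and above both controls in the per-exon files (log2 fold change -0.04, SE 0.165, adjusted p = 0.911 by edgeR). Mrps25 (NM_025578, chr6:92169523-92184023) had 105 and 106 CPM in Asxl2-/- replicates 1 and 3, 103 CPM in control replicate 2, 81.98 CPM in Asxl2-/- replicate 2, and 75.3 and 82.2 CPM in control replicates 1 and 3. These values nearly coincided within each kind of file (log2 fold change 0.05, SE 0.0781, adjusted p = 0.736 by edgeR). Its value is uncertain, since 58.3% of the exon bases of its transcript are also exon bases of Nr2c2 and the libraries do not mark strand. In all, 8 of the 77 genes share exon bases with another gene. The other 69 were all lower, with a median log2 fold change of -0.34.

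**Figure D4:**
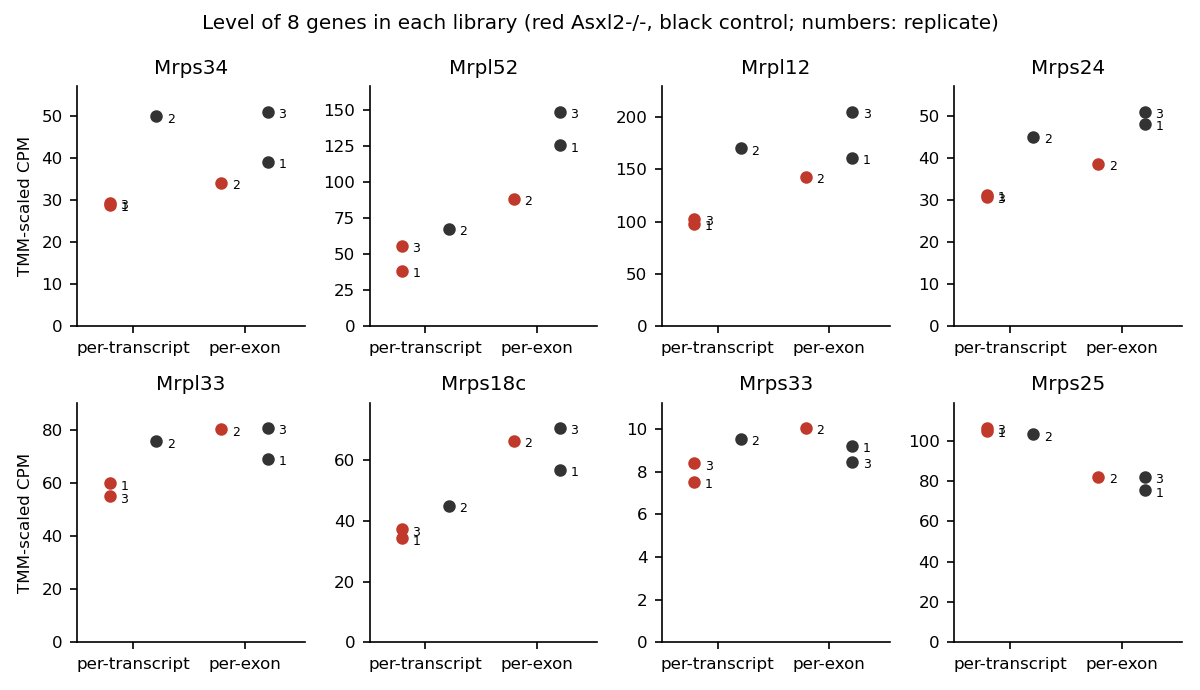
Level of 8 genes in each library (vertical axis, CPM after TMM scaling, starting at 0), with the per-transcript files on the left and the per-exon files on the right of each panel. Red points are Asxl2-/-, black points control, and numbers give the replicate. In the upper row (Mrps34, Mrpl52, Mrpl12, Mrps24) red lies below black in both kinds of file, and in the lower row (Mrpl33, Mrps18c, Mrps33, Mrps25) it does not.

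Mrps36 (NM_025369, chr13:100735940-100744659) carries the name of the family but encodes a subunit of the oxoglutarate dehydrogenase complex of the citric acid cycle and not a ribosomal protein. It had 8.52 and 10.2 CPM in Asxl2-/- replicates 1 and 3, 12.3 CPM in control replicate 2, 14.2 CPM in Asxl2-/- replicate 2, and 18.5 and 22.9 CPM in control replicates 1 and 3. The Asxl2-/- libraries were lowest in both kinds of file (log2 fold change -0.47, SE 0.153, adjusted p = 0.125 by edgeR).

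The ratio of the summed large-subunit level to the summed small-subunit level was slightly lower in the Asxl2-/- libraries of both kinds of file. This difference was not tested. In the per-transcript files it was 2.17 and 2.19 in Asxl2-/- replicates 1 and 3 and 2.27 in control replicate 2. In the per-exon files it was 2.22 in Asxl2-/- replicate 2 and 2.24 and 2.27 in control replicates 1 and 3. Levels per kilobase of transcript were spread widely among the genes, although the proteins are present in equal numbers in the ribosome with few exceptions. The order was taken within each control library, since levels differed between the kinds of file. In control replicate 2, from the per-transcript files, Mrpl12 was highest with 179 CPM per kilobase, ahead of Mrpl52 with 164 and Mrpl33 with 162. In control replicates 1 and 3, from the per-exon files, Mrpl52 was highest with 305 and 361 CPM per kilobase, ahead of Mrpl12 with 170 and 216. Mrpl12 is one of those exceptions, since it is present in several copies per ribosome. Mrps33 and Mrpl17 were the 2 lowest of the 77 genes in every control library. Mrps33 had 8.75, 9.08 and 8.04 CPM per kilobase in control replicates 1, 2 and 3, and Mrpl17 had 8.44, 8.98 and 9.96, so that their order changed between libraries. The levels of Mrpl17 and Mrpl1, the next lowest on the mean of the controls, rest on long reference transcripts of 6712 and 3449 bases. Mrpl17 (NM_025301, chr7:105803782-105811087) and Mrpl1 (NM_053158, chr5:96210115-96266727) had log2 fold changes of -0.37 (adjusted p = 0.0912 by edgeR) and -0.24 (adjusted p = 0.266).

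Transcripts of this gene set are short, with a median of 1053 bases against 2753 over all genes tested, and fold changes moved with transcript length over all genes. The median log2 fold change of all genes tested was -0.12 for 565 transcripts of up to 600 bases, -0.13 from there to 900 bases, -0.11 to 1200 bases, -0.08 to 1600 bases, -0.04 to 2400 bases, 0.02 to 5000 bases and 0.10 above that. The medians of the mitochondrial ribosomal protein genes in the same ranges were -0.24 (8 genes), -0.40 (17), -0.38 (20), -0.31 (14), -0.25 (9), -0.27 (7) and -0.16 (2). They were more negative than the median of all genes in every range. With the trend of each library with transcript length removed, an alternative chosen after seeing the data, 76 of 77 were lower, with a median of -0.29 where the median of all genes was -0.05, 45 lower at an unadjusted p under 0.05 where 16% of all genes were, and 0 past the threshold. Genes for the cytosolic ribosome, which are shorter still (median 684 bases), had a median log2 fold change of -0.09, and 69 of 83 tested were lower, with 10 lower and 1 higher at an unadjusted p under 0.05 and 0 past the threshold. Over all genes tested, 12.6% were lower at that level.

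**Figure D5:**
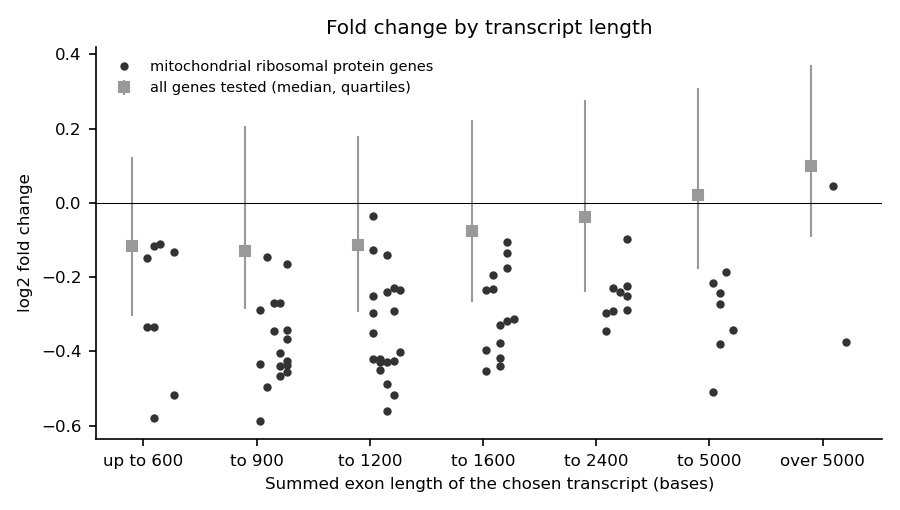
Log2 fold change (vertical axis) by the summed exon length of the transcript (horizontal axis, bases). Grey squares with bars are the median and quartiles of all genes tested in each range, and black points are the 77 genes, spread sideways for legibility. The grey medians run from -0.12 in the shortest range to 0.10 in the longest.

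Other proteins of the mitochondrial ribosome that do not carry the family name were all lower as well. Of 6 tested, 3 had an unadjusted p under 0.05, 0 passed the threshold and the median log2 fold change was -0.26. Over all genes tested, 12.6% were lower at that unadjusted level. Gadd45gip1, a large-subunit protein at the exit tunnel, was at -0.49 (adjusted p = 0.0676 by edgeR). The others were the small-subunit proteins Dap3 (-0.26, adjusted p = 0.176), Ptcd3 (-0.24, adjusted p = 0.277), Aurkaip1 (-0.30, adjusted p = 0.168) and Chchd1 (-0.25, adjusted p = 0.239), and the large-subunit peptidyl-tRNA hydrolase Ict1 (-0.12, adjusted p = 0.565 by edgeR), which was higher in the per-exon files (0.10). Their summed level was 395 and 427 CPM in Asxl2-/- replicates 1 and 3 against 516 CPM in control replicate 2, and 542 CPM in Asxl2-/- replicate 2 against 591 and 713 CPM in control replicates 1 and 3.

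The lists of genes that act with the mitochondrial ribosome held 0 genes past the threshold. Of 25 factors that assemble it or modify its RNA, 18 were lower, with a median log2 fold change of -0.18 and 7 lower and 1 higher at an unadjusted p under 0.05, where 12.6% of all genes were lower. Of 15 translation factors and partners of mitochondrial messenger RNA, 14 were lower, with a median of -0.21, and 5 were lower and 0 higher at that level. Of 21 mitochondrial tRNA synthetases and related enzymes, 18 were lower, with a median of -0.17, and 9 were lower and 0 higher at that level. Of 15 genes that copy and transcribe mitochondrial DNA or process its transcripts, 10 were lower (median -0.16), with 3 lower and 1 higher at that level. Of 13 transcriptional regulators of mitochondrial genes, 9 were lower (median -0.14), with 2 lower and 2 higher at that level. Each of these medians was closer to 0 than that of the ribosomal proteins in the fit on all 6 libraries. In the per-transcript files they were -0.17, -0.22, -0.16, -0.10 and -0.16 in the order above, against -0.41. The per-exon files gave -0.12, -0.24, -0.23, -0.21 and -0.13, against -0.22. Translation factors and tRNA synthetases were thus not closer to 0 there. The differences were not tested. Transcripts of these lists were longer, with medians of 1797, 2534, 2882, 2390 and 3427 bases in this order against 1053 bases. The median log2 fold change of all genes tested was -0.11 from 900 to 1200 bases and 0.02 from 2400 to 5000 bases. The part of transcript length in these differences was not tested.

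Promoters were examined because nearly all of the genes differed in the same direction. RefSeq promoters on GRCm38.p6, running from 250 bases before to 50 bases after a gene's start, were found for 68 of the 77 genes and for 10407 of the genes tested. They were searched on both strands for 3 short sequences bound by known activators of nuclear genes for mitochondrial proteins. The core of ETS factors such as GABP, CCGGAAG, was present in 25 of 68 promoters (36.8%) against 17.6% of all. The core of YY1, AAGATGGC, was present in 12 (17.6%) against 4.55%, and the core of NRF1, GCGCATGC, in 8 (11.8%) against 5.35%. At least 1 of the 3 was in 37 promoters and none in 31, and the median log2 fold change was -0.34 and -0.24 in these groups. By single core, the medians with and without it were -0.34 and -0.29 for ETS, -0.35 and -0.30 for YY1, and -0.32 and -0.30 for NRF1. These differences were not tested. Over all genes tested with a promoter, 25.2% had at least 1, with a median of -0.08, and the rest had a median of 0.04. A match describes the letters in this window only. Mrpl33 (log2 fold change -0.15) and Mrps18c (-0.13) had a core, while Mrpl12 (-0.56), Mrpl55 (-0.50) and Mrps5 (-0.45) had none. The stretches printed below therefore do not stand for the set. The 100 bases before the start are printed for genes with matches of each kind and for Mrps25, the only gene that was not lower, which had none. They were picked after the matches were seen, run 5′ to 3′ towards the gene and carry the matched cores in capitals.
Mrpl52: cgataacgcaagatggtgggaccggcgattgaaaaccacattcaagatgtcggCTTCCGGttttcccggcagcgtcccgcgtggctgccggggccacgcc
Mrpl22: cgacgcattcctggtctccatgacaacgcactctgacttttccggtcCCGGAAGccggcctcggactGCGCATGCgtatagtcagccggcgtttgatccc
Mrpl43: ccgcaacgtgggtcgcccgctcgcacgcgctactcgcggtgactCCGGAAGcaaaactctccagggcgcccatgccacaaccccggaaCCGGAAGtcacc
Mrpl9: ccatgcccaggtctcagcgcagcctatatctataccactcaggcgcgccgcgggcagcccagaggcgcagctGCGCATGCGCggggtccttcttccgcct
Mrpl36: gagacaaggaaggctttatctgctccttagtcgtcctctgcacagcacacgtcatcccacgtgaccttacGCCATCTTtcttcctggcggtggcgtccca
Mrps25: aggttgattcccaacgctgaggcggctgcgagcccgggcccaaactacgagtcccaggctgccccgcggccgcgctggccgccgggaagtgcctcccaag
Mrpl52 (chr14:54426809-54426908, plus strand) has an ETS core read on the opposite strand, and its gene had a log2 fold change of -0.58. Mrpl22 (chr11:58171564-58171663, plus strand, log2 fold change -0.45) has an ETS core followed by an NRF1 core, and Mrpl43 (chr19:45006443-45006542, minus strand, -0.33) has an ETS core at 2 places. Mrpl9 (chr3:94443236-94443335, plus strand, -0.35) has an NRF1 core that matches on both strands, and Mrpl36 (chr13:73330909-73331008, plus strand, -0.43) has a YY1 core on the opposite strand. The Mrps25 stretch lies at chr6:92184024-92184123 on the minus strand.

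Many of these genes start close to another gene that runs the opposite way. A head-to-head neighbour whose start lay within 500 bases was found for 21 of the 68 genes (30.9%) and for 10.8% of all genes tested with a promoter. In 1 case both partners belong to the set. Mrpl46, of the large subunit, and Mrps11, of the small subunit, start 41 bases apart at chr7:78783090-78783130, and the stretch between them is shown because it separates genes of both subunits. It reads 5′ to 3′ towards Mrps11.
Mrpl46-Mrps11: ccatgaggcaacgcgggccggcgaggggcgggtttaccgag
The stretch itself held none of the 3 cores, while the longer promoter window of Mrps11 held a YY1 core. Mrps11 had 21.9 and 21.4 CPM in Asxl2-/- replicates 1 and 3, 32.8 CPM in control replicate 2, 34.5 CPM in Asxl2-/- replicate 2, and 41.3 and 48.6 CPM in control replicates 1 and 3 (a log2 fold change of -0.49, SE 0.111, adjusted p = 0.0740 by edgeR). Mrpl46 had 27.4 and 27.3 CPM in Asxl2-/- replicates 1 and 3, 37.0 CPM in control replicate 2, 32.96 CPM in Asxl2-/- replicate 2, and 33.5 and 40.03 CPM in control replicates 1 and 3 (a log2 fold change of -0.30, SE 0.119, adjusted p = 0.173 by edgeR). Both were lowest in the Asxl2-/- libraries, Mrpl46 by little against control replicate 1. Of the 19 neighbours outside the set that were tested, 12 were lower and 0 passed the threshold, where 49.9% of all genes tested were lower and 0.304% passed as lower. The median log2 fold change of these neighbours was -0.23, and that of their mitochondrial ribosomal partners was -0.34.

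Markers of other cell types also differed between the groups. Their sums were scaled by library total without TMM, and the ranges span both kinds of file. The summed level of 4 B cell markers was 47.8 to 65.3 CPM in Asxl2-/- and 10.8 to 16.9 CPM in control libraries, and 3 of the 4 (Cd79a, Pax5 and Ebf1) passed the edgeR threshold as higher. The sum of 5 erythroid markers was 105 to 175 CPM in Asxl2-/- and 193 to 264 CPM in control libraries, with 0 past the threshold. Of these 5, 4 were lower and 1 was higher. Below every control library of the same kind of file lay 2 of them, and 3290 of the 14145 genes tested. The sum of 4 megakaryocyte markers was 219 to 466 CPM against 114 to 268 CPM, with Pf4 past the threshold as higher. Each of these 4 lay above every control library of the same kind of file, as did 3590 of the 14145 genes tested. Sums of the T cell (8.83 to 9.76 against 9.10 to 19.9 CPM) and myeloid markers (2208 to 5240 against 2059 to 6270 CPM) overlapped between the groups, those of the endothelial markers (126 to 177 against 86.1 to 119 CPM) did not, and 0 genes of these 3 lists passed the threshold. Of the 5 endothelial markers, 4 were higher and 1, Kdr, was lower (log2 fold change -0.31, adjusted p = 0.770 by edgeR). Only 3 of the 5 lay above every control library of the same kind of file, as did 3590 of the 14145 genes tested. The myeloid sums were mostly Mpo, and of the 6 myeloid markers 4 were higher and 2 lower. S100a9 (log2 fold change 2.36, adjusted p = 0.0772 by edgeR) and Itgam (1.01, adjusted p = 0.0528) lay above every control library of the same kind of file. No marker tested was at 0 in all libraries. The part of these differences in the levels of the mitochondrial ribosomal protein genes was not tested.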

How the data were processed

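RNA sequencing counts of 6 libraries of mouse LSK cells were used. The deposited values were raw counts, which the authors gave per RefSeq transcript in 3 files and per exon in the other 3, on the mm10 build, without pooling of replicates. The submitters' processing notes name STAR, featureCounts and DESeq2 without versions, and which tool made these files is not given in the sources used here. According to the study's methods, libraries were poly(A)-selected and unstranded, came from biological replicates, and were tested there with Cuffdiff, which needs aligned reads. An unstranded count cannot separate overlapping genes.

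Each symbol was represented by the transcript with the longest summed exon length, and exon counts were summed over it. Totals of 25528540 to 55032075 counts per library are not comparable as depth between the kinds of file. Tests used edgeR 4.0.16 (glmQLFit and glmQLFTest, TMM, filterByExpr, R 4.3.3) on all genes, with the kind of file as covariate and 3 residual degrees of freedom. Two-sided p-values were adjusted by Benjamini-Hochberg over all genes tested, with a threshold of 0.05. SEs were derived from the fold change and its F statistic. Log2 CPM values used a prior count of 2, and log2 ratios within a kind of file, which carry no test, were taken after adding 0.5 CPM. The scripts were tested on simulated counts.

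The genes named by rule were those past the threshold, the 6 most negative and up to 6 most positive fold changes, the 3 highest and 3 lowest levels per kilobase in the controls, 7 genes whose role or name needs a word, and the other proteins of the mitochondrial ribosome. Further genes were named after the data were seen, for small p-values, opposite signs between the kinds of file, promoter matches or their absence, or neighbours. The genes and lists were chosen with earlier results of these data known. Alternatives were DESeq2 1.42.0, limma-voom (limma 3.58.1), other scalings, filters, transcripts and covariates, a replicate block, either kind of file by itself, and omission of each library in turn. Removal of trends with transcript length or GC content, TMM within a kind of file and leaving out X and Y were added after seeing the data. GC content came from older reference transcripts and was known for 76 of the 77 genes and 87.6% of all genes tested. A pair of marker genes from the lists is not reported here.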

Additional observations from a re-analysis of the deposited data

How the results depend on the processing

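Across 23 alternatives, 72 to 77 of the 77 genes were lower and the median log2 fold change stayed negative. The median was -0.22 with library size only, -0.41 in the per-transcript files and -0.22 in the per-exon files, and -0.42 to -0.22 when a library was left out. The number of genes past the threshold, 0 in the edgeR fit, was 32 with DESeq2 and 0 to 24 when a library was left out, and the number lower at an unadjusted p under 0.05 was 8 to 62 in those fits. Over all genes, 331 passed with edgeR, 2302 with DESeq2, 161 with library size only and 9 to 1312 when a library was left out. Scaling moved the zero point, since the median of all genes was -0.05 with median-ratio scaling and 0.10 with library size only.

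With a replicate block beside the file kind, 51 genes passed (5179 over all genes, 1 residual degree of freedom), and with the replicate block without the file kind, 0 passed and 18 were lower at an unadjusted p under 0.05. The labels give no meaning to the shared numbers. Deviations from the group means correlated across genes at 0.19, -0.20 and -0.03 in the same-numbered pairs 1, 2 and 3, but same-numbered libraries differ in file kind in every pair. After removal of the file kind the values were 0.64, 1.00 and 0.39, where the layout alone gives unpaired noise 0.143, 1 and 0.143. The value of pair 2 is thus fixed by the layout. The libraries numbered 1 and 3 correlated best with their own number. However, the layout ties pairs 1 and 3 to each other once group means and file kind are removed. They form 1 contrast and not separate agreements, so this order does not decide the pairing. Whether the numbers pair the libraries was not settled.

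Single genes changed sign. Mrps25 was at -0.00163 under DESeq2, -0.00176 under median-ratio scaling and -0.0922 with the length trend removed. Mrps33 became 0.0146 with limma-voom, 0.0586 with library size only, 0.17 in the per-exon files and 0.00967 with the length trend removed. Mrpl33 and Mrps18c became 0.098 and 0.0573 in the per-exon files. With a library left out, values ran from -0.26 to 0.19 for Mrps33, -0.40 to 0.10 for Mrpl33 and -0.33 to 0.0631 for Mrps18c. The causes were not tested. The design has 3 libraries a group in 2 kinds of file, each kind holding 1 group as a single library, so values within a kind have no replicate check in that group.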
